A study of Mus musculus with 9 samples.

Results

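The Rab genes described here are the 58 genes, of 22180 measured in alpha TC6 cells, whose symbol is Rab followed by a number and, in some, a letter. They were read from 66 array probes that carry a single gene symbol, and for the 7 genes with more than 1 such probe the probe with the highest mean was kept. Rab4b, whose probes carry several symbols, was not analysed here. Alpha TC6 is a glucagon-producing cell line derived from a mouse glucagonoma. All 3 groups had received a lentivirus with an shRNA and had been selected with puromycin: control cells carried a nonsilencing shRNA, alphaIRS1KD cells an shRNA to insulin receptor substrate 1 and alphaIRS2KD cells an shRNA to insulin receptor substrate 2. RNA of each group was hybridized to 3 Affymetrix Mouse Gene 2.0 ST arrays, 9 in all, and the study used them to look for genes and pathways linked to IRS1 signaling. Each knockdown was 1 stable line, so the knockdown and the line cannot be told apart. The labels number the arrays but do not say that they came from separate cultures, so the p-values reflect the spread among these arrays alone, which may be technical.

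Rab proteins are small GTPases that mark membranes and direct vesicle budding, transport, tethering and fusion. A Rab protein is loaded with GTP by a guanine nucleotide exchange factor (GEF), binds effectors in that state, and is switched off by a GTPase-activating protein (GAP), while escort proteins and GDP dissociation inhibitors handle its lipid anchor. In endocrine cells the Rab3 and Rab27 proteins sit on secretory granules and take part in regulated exocytosis, and insulin signaling reaches Rab proteins through AKT, which phosphorylates the GAPs Tbc1d1 and Tbc1d4.

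Every value is a log2 signal as deposited by the authors, and a gene was called when its adjusted p from limma over all 22180 genes was under 0.05. The targeted transcripts went with the labels: relative to control, Irs1 moved by -0.91 on the log2 scale with its own shRNA (adjusted p = 3.2e-05 from limma) and Irs2 by -0.58 with its own (adjusted p = 0.0017). A second, dimmer Irs1 probe (control mean 5.29) had -0.29 (limma adjusted p = 0.22, all probes fitted). With the mean of both probes Irs1 was still called (-0.60). Mean correlations of an array with the other 8 lay between 0.994 and 0.995. AlphaIRS2KD replicate 3 stood somewhat apart from its group, with the lowest limma array weight (0.361, against 0.645 to 1.589 for the other arrays), and the called Rab results are also given without it. Of 8 alpha-cell markers, 5 were measured, and their mean log2 signal was between 11.12 and 11.22 on all arrays. Glucagon itself (Gcg) lay between 13.21 and 13.25, and of 7 beta-cell markers 6 were measured, of which Ins2 and Slc2a2 were below the array median on all 9 arrays while Mafa, Pdx1 and Nkx6-1 were above it on all 9. The mean log2 signal of these 6 was 5.65 to 5.75 on control, 5.71 to 5.78 on alphaIRS1KD and 5.74 to 6.09 on alphaIRS2KD arrays. None was called, but Iapp was 5.11, 6.35 and 6.44 on the alphaIRS2KD arrays against 4.61 to 4.86 on the control arrays (adjusted p = 0.12), and Ins2 4.37, 4.88 and 5.09 against 3.90 to 4.23 (adjusted p = 0.088). Among those alpha-cell markers Irx1 and Irx2 were higher in alphaIRS1KD cells than in control cells (log2 fold changes 0.51 and 0.39) and Ttr was lower (-0.98), and of the duct markers Sox9 was lower (-0.80). Irx1 was also higher in alphaIRS2KD cells (0.36). The part of these markers in the Rab values was not tested. Fewer cells of a type and less RNA per cell cannot be told apart in these bulk samples.

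Of the 58 Rab genes, 3 were higher in alphaIRS1KD than in control cells: Rab31, an endosomal Rab of the Rab5 branch, and the granule Rabs Rab3c and Rab27b. Over all genes 2.98% were called higher and 3.68% lower in this comparison, and 0 Rab genes were called lower. At an unadjusted limma p under 0.05, 3 Rab genes were lower, beside 2025 of all 22180 genes. In alphaIRS2KD cells 2 Rab genes, Rab27b and Rab3c, were higher than in control cells, where 0.893% of all genes were, and 0 were lower, where 0.694% of all genes were. Unadjusted, 2 Rab genes were lower there, beside 1170 of all 22180 genes. Between the knockdown lines 1 Rab gene, Rab31, was higher in alphaIRS1KD cells (1.71% of all genes), and 0 were lower (2.42% of all genes). Unadjusted, 8 Rab genes were lower in this comparison, beside 1823 of all 22180 genes. The called shares of the Rab genes were thus 5.17%, 3.45% and 1.72% in the 3 comparisons and rest on 3 genes or fewer. The comparisons with control cells share the same control arrays.

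**Figure D1:**
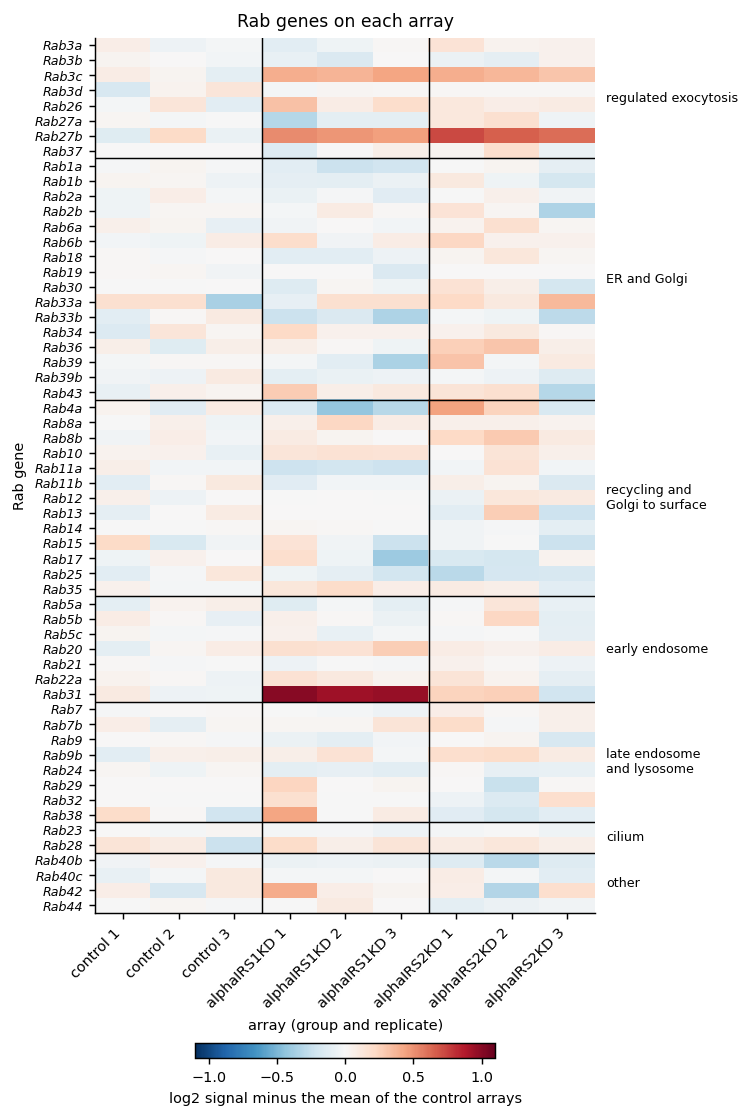
Log2 signal of each of the 58 Rab genes (rows, grouped by role) on each of the 9 arrays (columns), as the difference from the mean of the 3 control arrays. Rab31 stands out on the 3 alphaIRS1KD arrays, Rab3c and Rab27b on all 6 knockdown arrays, and most other rows stay close to 0.

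Of the 3 called Rab genes described next, Rab27b is left out here. The sequences just before the annotated start of Rab31 and Rab3c are shown. They are the 250 bases before the start in RefSeq on GRCm38.p6, both on the minus strand and written 5′ to 3′, with matches to 4 motifs in capitals (positions give the first base of the match, counted back from the start). The motifs were GTAAACA (the FoxO core), TGACG (the core of the cAMP response element), GGGCGG (the GC box) and CACGTG (the E-box), searched on both strands.
Rab31, chr17:65772753-65773002: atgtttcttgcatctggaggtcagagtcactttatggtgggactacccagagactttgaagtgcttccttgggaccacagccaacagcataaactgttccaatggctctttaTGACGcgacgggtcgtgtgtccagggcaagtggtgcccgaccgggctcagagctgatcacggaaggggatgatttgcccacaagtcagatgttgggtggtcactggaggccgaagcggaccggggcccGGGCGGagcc
Rab3c, chr13:110280207-110280456: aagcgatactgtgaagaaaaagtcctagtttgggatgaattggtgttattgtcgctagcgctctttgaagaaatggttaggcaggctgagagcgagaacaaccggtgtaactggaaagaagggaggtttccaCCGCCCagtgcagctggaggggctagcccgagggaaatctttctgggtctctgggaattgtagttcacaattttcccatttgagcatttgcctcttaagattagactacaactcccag
The Rab31 window held TGACG at -138 and GGGCGG at -10. The Rab3c window held CCGCCC, which is GGGCGG on the other strand, at -118. Neither held GTAAACA or CACGTG. RefSeq windows were given for 47 of the 58 Rab genes, 59 windows in all, among 32851 windows of the same length. GGGCGG was in 66.1% of the Rab windows and 32.7% of all windows, TGACG in 40.7% and 17.8%, GTAAACA in 3.39% and 3.17%, and CACGTG in 8.47% and 6.02%. These are letter matches and not sites, and windows of 1 gene can overlap. The windows of all genes were not matched for signal, whose median was 7.51 over the Rab genes and 5.48 over all genes.

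Rab31 (also known as Rab22b) works on early endosomes and in transport from the trans-Golgi network to endosomes. Its log2 signal was 7.46, 7.31 and 7.32 on the control arrays, 8.36, 8.29 and 8.32 on the alphaIRS1KD arrays, and 7.61, 7.62 and 7.15 on the alphaIRS2KD arrays. Every alphaIRS1KD array was above every other array, and the alphaIRS2KD arrays overlapped the control arrays. AlphaIRS1KD cells exceeded control cells 1.95-fold in Rab31 signal (log2 difference 0.96 with SE 0.12, limma adjusted p = 0.0014). They exceeded alphaIRS2KD cells 1.82-fold (0.86 with SE 0.12, limma adjusted p = 0.0041). In alphaIRS2KD cells the log2 fold change against control was 0.10 (95% interval -0.17 to 0.37, adjusted p = 0.83). The lowest of the alphaIRS2KD values was that of replicate 3, and without it the changes were 0.25 against control (adjusted p = 0.11) and 0.71 between the knockdown lines (adjusted p = 0.0011). Rab31 has a single probe. Of the 10 measured genes nearest to it in RefSeq order on GRCm38.p6, 5 on each side, 0 were called against control in alphaIRS1KD cells. Their log2 fold changes were between -0.28 and 0.38, and 2.98% of all genes were called higher and 3.68% lower in that comparison. The other early-endosome Rabs were not called in any comparison. With so few genes this is near the share of all genes, at most 2.98% higher and 3.68% lower. In alphaIRS1KD cells its closest relative, Rab22a, changed by 0.10 on the log2 scale (adjusted p = 0.52), and Rab5a, Rab5b and Rab5c, which drive fusion of early endosomes, had -0.09, 0.00 and -0.02. Rab20 had 0.20 (adjusted p = 0.11) and Rab21 -0.02.

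Rab3c is 1 of the 4 Rab3 proteins of secretory vesicles. Its log2 signal was 8.09, 8.04 and 7.90 in control cells, 8.41, 8.38 and 8.44 in alphaIRS1KD cells, and 8.41, 8.37 and 8.31 in alphaIRS2KD cells. All 6 knockdown arrays were above the 3 control arrays, and the 2 knockdown lines overlapped each other. The log2 fold change was 0.40 in alphaIRS1KD cells (SE 0.06, adjusted p = 0.0043) and 0.35 in alphaIRS2KD cells (SE 0.06, adjusted p = 0.025), 1.32-fold and 1.28-fold. Without alphaIRS2KD replicate 3 the latter was 0.38 (adjusted p = 0.036). A second, dimmer Rab3c probe did not share the change: its signal was 6.39, 6.23 and 6.28 in control cells, 6.39, 6.33 and 6.16 in alphaIRS1KD cells, and 6.17, 6.22 and 6.30 in alphaIRS2KD cells. On that probe the differences from control were -0.01 (95% interval -0.19 to 0.17) and -0.07 (-0.25 to 0.11), and with the mean of both probes Rab3c was called in neither line (0.20 and 0.14). What part of the transcript each probe reads is not given in the sources used here. Of the 10 measured neighbours of Rab3c, 0 were called against control in alphaIRS1KD cells (against 2.98% of all genes higher and 3.68% lower). In alphaIRS2KD cells 0 of them were called (against 0.893% and 0.694%). In alphaIRS2KD cells the Rab3c call was lost in 11 of 21 alternatives, among them the omission of control replicate 2 or 3, alphaIRS1KD replicate 1 or 2, or alphaIRS2KD replicate 1 or 2 (adjusted p up to 0.093).

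Rab27b shares with Rab27a the docking of secretory granules at the plasma membrane. Its log2 signal was 4.35, 4.69 and 4.40 in control cells, 5.00, 4.97 and 4.93 in alphaIRS1KD cells, and 5.21, 5.13 and 5.09 in alphaIRS2KD cells. The groups did not overlap, and the signal was below the array median on 7 of the 9 arrays. The log2 fold change was 0.49 in alphaIRS1KD cells (SE 0.09, adjusted p = 0.01) and 0.67 in alphaIRS2KD cells (SE 0.09, adjusted p = 0.0062), and the difference between the lines was -0.18 (adjusted p = 0.38). Without alphaIRS2KD replicate 3 the change in alphaIRS2KD cells was 0.69 (adjusted p = 0.019). Of the 10 measured neighbours of Rab27b, 1 was called in alphaIRS1KD cells, Ccdc68 (0.54, adjusted p = 0.0077), the nearest measured gene on one side. Over all genes 2.98% were called higher and 3.68% lower in that comparison, and whether the neighbours change together was not tested. In alphaIRS2KD cells Ccdc68 had 0.45 (adjusted p = 0.054), and 0 of the 10 were called (against 0.893% of all genes higher and 0.694% lower).

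**Figure D2:**
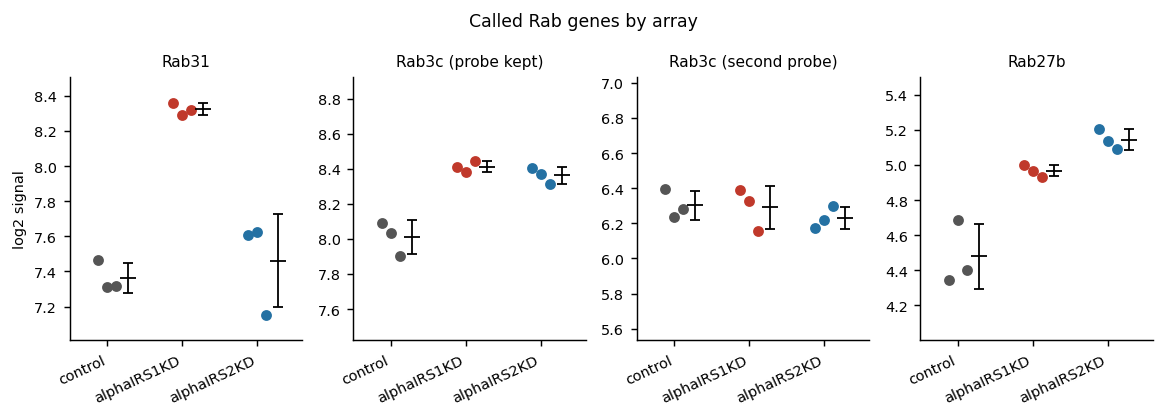
Log2 signal on each array (points) with the mean and SD of the 3 arrays of a group (bar), for the called Rab genes and for the second Rab3c probe. Each panel spans the same range of log2 units at its own level, and the second Rab3c probe shows no step between control cells and the knockdown lines.

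The other granule Rabs were not called in any comparison. Of all genes at most 2.98% were called higher and 3.68% lower in a comparison, so no call among so few genes is near that share. Rab3a, the most studied Rab3 protein in hormone release, had a log2 signal of 9.29, 9.17 and 9.20 in control cells, 9.11, 9.17 and 9.24 in alphaIRS1KD cells, and 9.37, 9.26 and 9.27 in alphaIRS2KD cells. Its log2 fold changes were -0.05 (95% interval -0.18 to 0.09) and 0.08 (-0.05 to 0.21), so a change past 1.25-fold lay outside both intervals. Rab27a had 8.71, 8.66 and 8.67 in control cells, 8.36, 8.57 and 8.58 in alphaIRS1KD cells, and 8.80, 8.86 and 8.63 in alphaIRS2KD cells. The alphaIRS1KD arrays were below all others, but the log2 fold changes of -0.18 against control (adjusted p = 0.28) and -0.26 against alphaIRS2KD cells (adjusted p = 0.13) did not pass the test. Rab27a therefore had a value of the opposite sign to Rab27b in alphaIRS1KD cells, a difference that was not tested. Log2 fold changes in alphaIRS1KD cells were -0.08 for Rab3b, 0.00 for Rab3d, 0.20 for Rab26 (adjusted p = 0.23) and -0.03 for Rab37, and in alphaIRS2KD cells the values were -0.04, 0.01, 0.09 and 0.05. Some signals were identical between arrays, as for Rab37 on all 3 control arrays (7.05) and Rab3d on all 3 alphaIRS2KD arrays (6.84). Such ties within a group occurred in 29.3% of the Rab genes and 33.5% of all genes.

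Rab8a, Rab10, Rab13 and Rab14 are substrates of the AKT-regulated GAPs, and act in transport to the cell surface and, in fat and muscle cells, in insulin-driven delivery of the glucose transporter GLUT4. None of the 4 was called, beside at most 2.98% of all genes higher and 3.68% lower in a comparison. Rab10 had a log2 signal of 10.16, 10.18 and 10.04 in control cells and 10.26, 10.28 and 10.28 in alphaIRS1KD cells, where every array was above the control arrays. Its log2 fold change was 0.15 (95% interval 0.02 to 0.28, adjusted p = 0.22), and in alphaIRS2KD cells it was 0.07. Rab8a had 0.12 and 0.05, Rab13 0.01 and -0.02, and Rab14 0.01 and -0.05 in the 2 lines.

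Their GAPs differed between the lines. Tbc1d4 (also known as AS160) had a log2 signal of 5.57, 5.55 and 5.55 in control cells, 5.55, 5.44 and 5.68 in alphaIRS1KD cells, and 6.62, 6.63 and 6.24 in alphaIRS2KD cells. All alphaIRS2KD arrays were above the other 6, of which the control and alphaIRS1KD arrays overlapped. Tbc1d4 signal in alphaIRS2KD cells was 1.92-fold that of control cells (log2 difference 0.94 with SE 0.11, limma adjusted p = 0.0034). The difference from control was 0.00 in alphaIRS1KD cells, and that between the lines was -0.94 (adjusted p = 0.0015). Without alphaIRS2KD replicate 3, the lowest of its group, the change was 1.07 (adjusted p = 0.00086). Tbc1d1 had 8.10, 8.11 and 8.02 in control cells, 7.70, 7.59 and 7.85 in alphaIRS1KD cells, and 8.13, 8.09 and 8.13 in alphaIRS2KD cells. It was lower on all alphaIRS1KD arrays, with a log2 fold change of -0.36 against control (SE 0.07, adjusted p = 0.014), 0.04 in alphaIRS2KD cells and -0.41 between the lines (adjusted p = 0.013). A second, dimmer Tbc1d1 probe (control mean 4.71) differed by 0.08 between alphaIRS1KD and control cells (adjusted p = 0.78, all probes fitted). The mean of both probes gave -0.14 against control, which was not called. The Tbc1d1 call against control was also lost without control replicate 1, control replicate 2 or alphaIRS1KD replicate 1 (adjusted p up to 0.061).

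**Figure D3:**
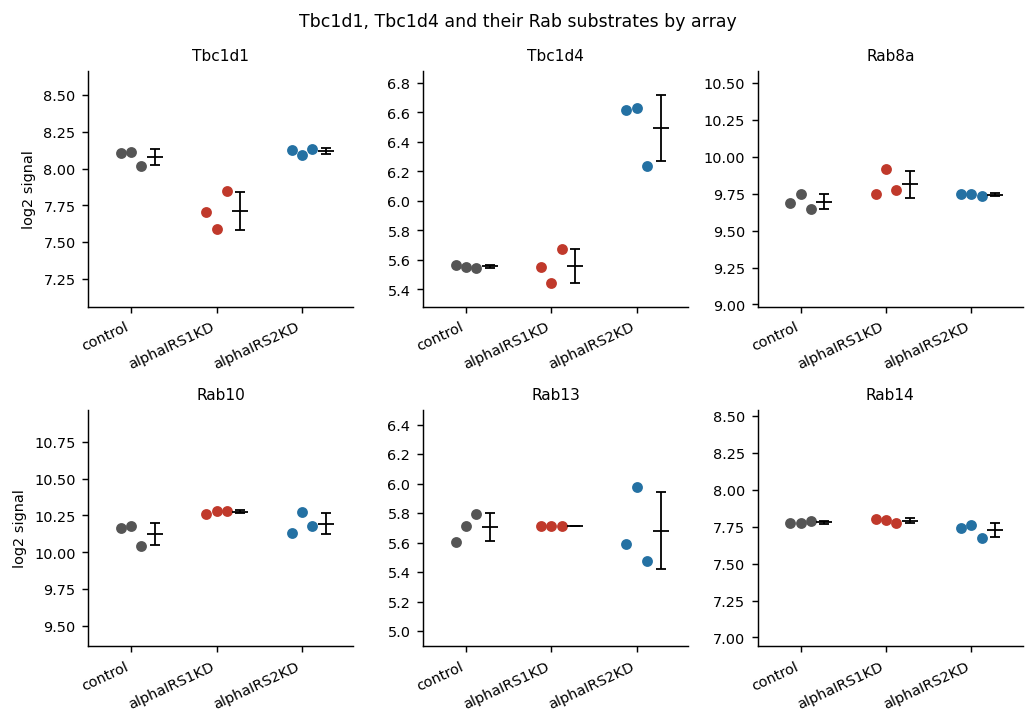
Log2 signal on each array (points) with the mean and SD of the 3 arrays of a group (bar), for the GAPs Tbc1d1 and Tbc1d4 and the Rab genes Rab8a, Rab10, Rab13 and Rab14. Tbc1d1 is lower on the alphaIRS1KD arrays and Tbc1d4 higher on the alphaIRS2KD arrays, while those of Rab13 spread from 5.48 to 5.98 in alphaIRS2KD cells.

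Outside exocytosis and early endosomes, no Rab gene was called. Of the 16 Rab genes of the endoplasmic reticulum and Golgi, 0 were called, beside at most 2.98% of all genes higher and 3.68% lower in a comparison. With so few genes, 0 called is near the share of all genes. In alphaIRS1KD cells 2 of the 16 were lower at an unadjusted limma p under 0.05, as were 2025 of all 22180 genes. Rab1a, which directs transport from the endoplasmic reticulum to the Golgi, was near the threshold. Its log2 signal was 11.07, 11.11 and 11.06 in control cells, 10.96, 10.84 and 10.87 in alphaIRS1KD cells, and 11.07, 11.11 and 10.98 in alphaIRS2KD cells. The alphaIRS1KD arrays were below all others, with a log2 fold change of -0.19 (SE 0.06, adjusted p = 0.092). Its paralog Rab1b had -0.09 (adjusted p = 0.61), and Rab33b, a Golgi Rab linked to autophagy, had -0.25 (adjusted p = 0.18).

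Of the 13 Rab genes of recycling and of transport from the trans-Golgi network to the surface, 0 were called. Of all genes at most 2.98% were called higher and 3.68% lower in a comparison. Rab11a, the main Rab of recycling endosomes, had a log2 signal of 7.24, 7.14 and 7.14 in control cells, 6.95, 6.97 and 6.94 in alphaIRS1KD cells, and 7.14, 7.33 and 7.14 in alphaIRS2KD cells. The alphaIRS1KD arrays were below all others, with log2 fold changes of -0.22 against control (SE 0.06, adjusted p = 0.091) and -0.25 against alphaIRS2KD cells (adjusted p = 0.072). Rab11b had -0.06 against control. Rab4a, of fast recycling, differed most between the knockdown lines among the Rab genes that were not called. Its log2 signal was 5.93, 5.77 and 5.98 in control cells, 5.74, 5.46 and 5.59 in alphaIRS1KD cells, and 6.34, 6.14 and 5.73 in alphaIRS2KD cells. The difference of -0.47 (SE 0.15, adjusted p = 0.14) did not pass the test, and alphaIRS2KD replicate 3 overlapped the alphaIRS1KD arrays.

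Of the 8 Rab genes of late endosomes and lysosomes, 2 of cilia and 4 of other or less known roles, 0 were called. The share of all genes was at most 2.98% higher and 3.68% lower, so 0 among so few genes is near it. Rab7, which directs late endosomes to lysosomes, had log2 fold changes of -0.03 (95% interval -0.13 to 0.07) and 0.05 (-0.06 to 0.15). Rab32 and Rab38, which act in the making of lysosome-related organelles, had 0.06 and 0.17 in alphaIRS1KD cells. Rab23 and Rab28, which act at the cilium, had -0.03 and 0.14.

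The spread set how small a change could be seen. The median SD within a group was 0.09 over the Rab genes and 0.10 over all genes. In alphaIRS1KD against control, the 95% interval of the log2 fold change lay within 1.5-fold in either direction for 55 Rab genes (94.8%, against 91.4% of all genes) and within 1.25-fold for 41 (70.7%, against 57.6%). In alphaIRS2KD against control the counts were 57 and 44. The Rab genes that did not pass the test in these comparisons are thus bounded by their intervals, but not shown to be equal. Rab4a, not called in alphaIRS1KD cells, had an interval from -0.62 to 0.04 there, which reached past 1.5-fold. The median log2 fold change of the Rab genes was -0.007 in alphaIRS1KD and 0.012 in alphaIRS2KD cells, beside 0.005 and -0.003 over all genes. Signals of 9 Rab genes, among them Rab15, Rab38 and Rab6b, were below the array median on all 9 arrays, and 43 were above it on all 9.

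**Figure D4:**
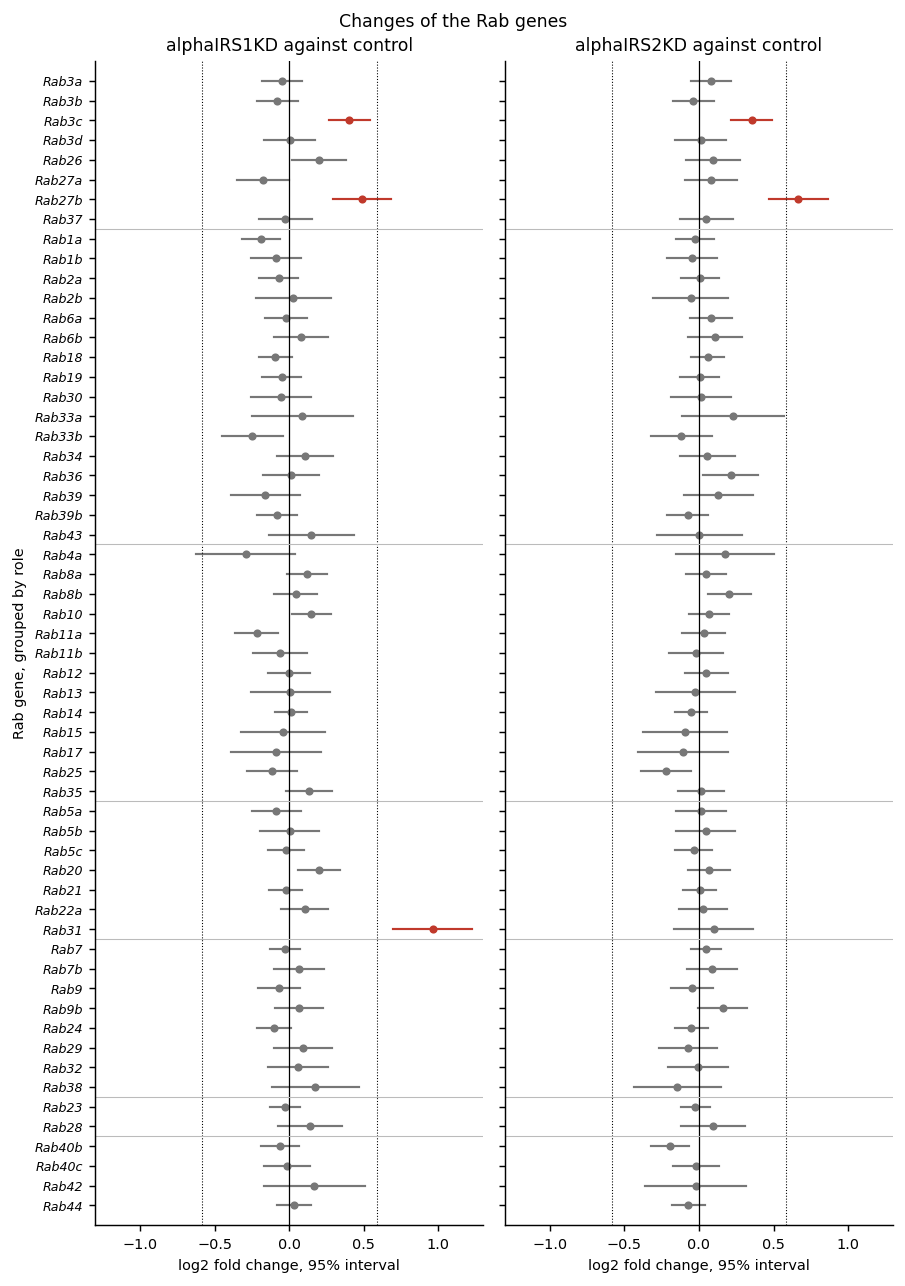
Log2 fold change against control (point) with its 95% interval from limma (line) for each of the 58 Rab genes, grouped by role, in alphaIRS1KD cells (left) and alphaIRS2KD cells (right). Called genes are red, the dotted lines mark 1.5-fold, and the red intervals are those of Rab31, Rab3c and Rab27b on the left and of Rab3c and Rab27b on the right.

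Genes whose products load, switch off, carry or bind Rab proteins were read from a list of 134, of which 125 were measured. In alphaIRS1KD against control, 5 were higher (4.00%, against 2.98% of all genes) and 14 lower (11.2%, against 3.68%). In alphaIRS2KD against control 3 were higher (2.40%, against 0.893%) and 2 lower (1.60%, against 0.694%). Between the lines 1 was higher (0.80%, against 1.71%) and 9 lower (7.20%, against 2.42%) in alphaIRS1KD cells. The median log2 fold change of the list was -0.005 in alphaIRS1KD and -0.002 in alphaIRS2KD cells, near that of all genes. The gene list was written with earlier results of these data known, and the counts are a description.

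Of the 34 GAP genes, alphaIRS1KD cells had 2 called higher (5.88%, against 2.98% of all genes) and 4 lower (11.8%, against 3.68%). AlphaIRS2KD cells, compared with the same control arrays, had 3 higher (8.82%, against 0.893%) and 2 lower (5.88%, against 0.694%). Tbc1d5, a GAP of Rab7 that works with retromer, had a log2 signal of 7.54 to 7.73 in control, 7.91 to 7.98 in alphaIRS1KD and 7.88 to 7.98 in alphaIRS2KD cells, with log2 fold changes of 0.32 and 0.32. Its second probe, with a control mean of 2.47, had -0.15 and 0.00, and with the mean of both probes Tbc1d5 was called in neither line (0.09, adjusted p = 0.55, and 0.16, adjusted p = 0.39). Usp6nl (RN-tre), a GAP of Rab5, had 0.31 and 0.30, Tbc1d16, a GAP of Rab4, had -0.36 and -0.37, and Tbc1d8b had -0.53 and -0.47. In alphaIRS2KD cells the calls of Tbc1d5 and Tbc1d16 were each lost on omission of 8 of the 9 arrays (adjusted p up to 0.16), all but control replicate 1 for Tbc1d5 and all but alphaIRS2KD replicate 1 for Tbc1d16. That of Tbc1d8b was lost on omission of 7 arrays, all but alphaIRS2KD replicates 2 and 3 (adjusted p up to 0.14). In alphaIRS1KD cells Tbc1d5 lost its call without control replicate 2 or 3 or alphaIRS1KD replicate 1 or 2 (adjusted p up to 0.067), and Tbc1d16 without control replicate 1 or 2 or alphaIRS1KD replicate 2 or 3 (up to 0.074). Tbc1d30, a GAP of Rab8, was lower in alphaIRS1KD cells (-0.49, called in all 21 alternatives) and had -0.17 in alphaIRS2KD cells (difference between the lines -0.31, adjusted p = 0.056).

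Of the 33 GEF genes measured, 3 were higher (9.09%, against 2.98% of all genes) and 2 lower (6.06%, against 3.68%) in alphaIRS1KD cells. In alphaIRS2KD cells 0 were called (against 0.893% of all genes higher and 0.694% lower). There 2 were higher and 3 lower at an unadjusted limma p under 0.05, beside 1227 and 1170 of all 22180 genes. Madd, a GEF of the granule Rabs Rab3 and Rab27, had a log2 signal of 8.42, 8.41 and 8.52 in control cells, 8.15, 8.12 and 8.21 in alphaIRS1KD cells, and 8.46, 8.51 and 8.54 in alphaIRS2KD cells. It was lower on all alphaIRS1KD arrays (-0.29, adjusted p = 0.012). Rab3il1 (GRAB), another GEF of this group, went the other way, with 6.90, 6.93 and 6.90 in control cells, 7.19, 7.11 and 7.28 in alphaIRS1KD cells, and 6.89, 6.78 and 6.75 in alphaIRS2KD cells. Its log2 fold change was 0.29 in alphaIRS1KD cells (adjusted p = 0.026). Dennd1a, a GEF of Rab35, was higher (0.22), as was Dennd5a (0.25), and Dennd4b, a GEF of Rab10, was lower (-0.29). The log2 signal of Dennd1a was 7.79 to 7.92 in control, 8.03 to 8.08 in alphaIRS1KD and 7.93 to 8.00 in alphaIRS2KD cells. Its alphaIRS2KD arrays were thus also above the control arrays, and its call was not recomputed with arrays left out. In alphaIRS2KD cells Dennd5a had 0.12 and Dennd4b -0.20, and neither was called between the lines (limma adjusted p = 0.26 and 0.6). The Madd call was lost without alphaIRS1KD replicate 2 (adjusted p = 0.055), that of Rab3il1 without any 1 control array or alphaIRS1KD replicate 1 or 3 (up to 0.089), and that of Dennd5a without control replicate 1 or 3 or alphaIRS1KD replicate 2 or 3 (up to 0.098). Dennd4b lost its call without any 1 array other than alphaIRS2KD replicate 3 (up to 0.16).

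Of the 7 measured genes of prenylation and GDP dissociation, 2 were called in alphaIRS1KD cells, both lower (28.6%, against 3.68% of all genes). They were Chml (REP2), which escorts new Rab proteins to their lipid anchor (-0.58), and Rabac1 (PRA1), which helps to place Rab proteins on membranes (-0.50). In alphaIRS2KD cells 0 of the 7 were called (against 0.893% of all genes higher and 0.694% lower). All 7 had negative log2 fold changes there, from -0.343 to -0.012 with a median of -0.084, beside 11354 of all 22180 genes. Chml had -0.34 and Rabac1 -0.27 there, and neither was called between the lines (limma adjusted p = 0.4 and 0.16). Of the 17 effectors of exocytosis, 2 were lower in alphaIRS1KD cells (11.8%, against 3.68%). Sytl5, which binds Rab27, had -0.52 and Rph3al (Noc2), which binds Rab3 and Rab27, had -0.30 in alphaIRS1KD cells. In alphaIRS2KD cells 0 of the 17 were called (against 0.893% of all genes higher and 0.694% lower). There 1 was higher and 3 were lower at an unadjusted limma p under 0.05, beside 1227 and 1170 of all 22180 genes. The endosomal effectors Rab11fip2, which binds Rab11, and Ocrl had -0.29 and -0.30, and the Golgi tethers Uso1 and Golga5, which bind Rab1, had -0.38 and -0.35. All of these were called in alphaIRS1KD against control, and those of Sytl5, Ocrl and Uso1 held in all 21 alternatives. The Rabac1 call held with each array left out. Chml lost its call without any 1 control array or alphaIRS1KD replicate 1 or 3 (adjusted p up to 0.09), and Golga5 without control replicate 3 or alphaIRS1KD replicate 1 or 2 (up to 0.061). Rab11fip2 lost it without any 1 control array, alphaIRS1KD replicate 2 or 3, or alphaIRS2KD replicate 1 (up to 0.15), and Rph3al without any 1 array other than control replicate 1 and alphaIRS2KD replicate 3 (up to 0.13). In alphaIRS2KD cells Sytl5 had -0.20, Rph3al -0.19, Rab11fip2 0.12, Ocrl -0.07, Uso1 -0.09 and Golga5 -0.21, and none was called. Between the lines Rph3al and Golga5 were not called (limma adjusted p = 0.5 and 0.38), and the other effectors were.

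**Figure D5:**
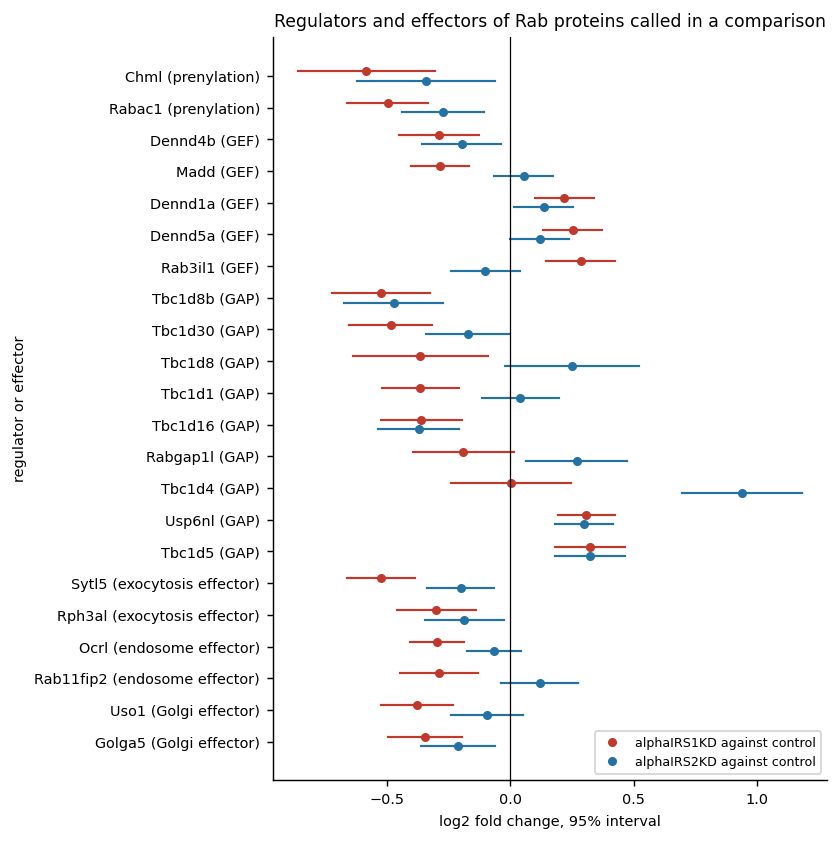
Log2 fold change against control (point) with its 95% interval from limma (line) in alphaIRS1KD cells (red) and alphaIRS2KD cells (blue), for every regulator or effector called in any of the 3 comparisons. Tbc1d4 lies at 0.00 in alphaIRS1KD and 0.94 in alphaIRS2KD cells, and Chml at the lower end with -0.58 in alphaIRS1KD cells.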

How the data were processed

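RNA of control, alphaIRS1KD and alphaIRS2KD cells was labelled and hybridized by the authors, who processed the arrays with RMA (version not given in the sources used here). The values are therefore log2 signals, deposited after background correction, normalization between arrays and summary per probe set, and summary by RMA can give identical values on several arrays. Arrays have no read depth; precision is limited by their number. Of 41345 probes, 23521 carry 1 gene symbol in the platform annotation, which can be old. The brightest probe was kept for each of 22180 genes. A linear model of limma (version 3.58.1, under R 4.3.3) held all 9 arrays, with a term for each group, and p-values were adjusted by Benjamini-Hochberg over all genes. The fit was tested on simulated data. The members, the lists and the rule for naming genes were chosen with earlier results of these data known. The rule names Irs1 and Irs2, called Rab genes and their paralogs, the granule Rabs, Tbc1d1 and Tbc1d4 with their substrates, the 3 Rab genes next to the threshold, and up to 4 called members of a regulator list. Other genes were named after their values were seen. Alternatives changed the normalization, the probe, a filter on the dimmest 30 percent, the arrays fitted, the replicate block, the spread estimate, the threshold, the test (the Student test of the methods) and the arrays left out.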

Additional observations from a re-analysis of the deposited data

Results flagged for a closer look

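Several values differed between the knockdown lines by the limma test of that difference (alphaIRS1KD minus alphaIRS2KD, log2 scale). Among the Rab genes this was Rab31 (0.86, adjusted p = 0.0041). Among the GAPs it was Tbc1d4 (-0.94, adjusted p = 0.0015), Tbc1d8 (-0.61, adjusted p = 0.025), Rabgap1l (-0.46, adjusted p = 0.025) and Tbc1d1 (-0.41, adjusted p = 0.013). Tbc1d8 and Rabgap1l had log2 fold changes of -0.37 and -0.19 in alphaIRS1KD cells and 0.25 and 0.27 in alphaIRS2KD cells, none of them called against control. Among the GEFs, Madd (-0.34, adjusted p = 0.0072) and Rab3il1 (0.39, adjusted p = 0.0087) differed in opposite directions. Among the effectors, Rab11fip2 (-0.41, adjusted p = 0.013), Sytl5 (-0.32, adjusted p = 0.019), Uso1 (-0.28, adjusted p = 0.046) and Ocrl (-0.23, adjusted p = 0.033) differed. With 1 array left out at a time, the differences of Tbc1d4, Rab31, Madd and Rab3il1 stayed called. The others were lost on omission of 2 arrays each for Tbc1d1 (alphaIRS1KD replicate 1, alphaIRS2KD replicate 1) and Rab11fip2 (alphaIRS1KD replicate 2, alphaIRS1KD replicate 3), 4 each for Rabgap1l and Sytl5, 5 for Tbc1d8, 7 for Ocrl and 8 for Uso1, with adjusted p up to 0.14. The mean of both Tbc1d1 probes gave -0.24 (adjusted p = 0.06), which was not called.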

How the results depend on the processing

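The count of Rab genes called higher in alphaIRS1KD against control was 3, and became 6 with the Student test of the methods unadjusted, 1 with it adjusted (Rab31) and 2 with the mean of the probes of a gene (without Rab3c). The count called lower was 0, and became 2 with the dimmest genes left out, with array weights or at an adjusted p under 0.1 (Rab11a and Rab1a each time), 1 with only the 2 compared groups (Rab11a), 1 with a trended and robust spread (Rab1a) and 8 with the unadjusted Student test. Leaving out 1 array gave 0 to 1 (Rab11a without alphaIRS2KD replicate 2). In alphaIRS2KD against control the count called higher was 2, and became 1 with the mean of probes, with all probes or with only the 2 compared groups, 0 with the adjusted Student test, and 1 to 2 with 1 array left out. The count called lower was 0, and became 2 with the unadjusted Student test. Between the lines the count called higher was 1, and became 2 and 0 with the unadjusted and adjusted Student test. The count called lower was 0, and became 1 with the dimmest genes left out, with array weights or at an adjusted p under 0.1, 2 with a trended and robust spread, 5 with the unadjusted Student test, and 0 to 1 with 1 array left out (Rab4a without alphaIRS2KD replicate 3). The share of all genes called under each setting is not given beside these counts. A looser threshold or an unadjusted test calls more of all genes too, so higher counts are not a result about the Rab genes.

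The values showed no pairing by replicate number: correlations of the deviations of same-numbered arrays lay between -0.08 and 0.02. This cannot tell whether same-numbered arrays were cultured or processed together, which the labels do not say. With the replicate number as a block, 1 Rab gene was called higher in alphaIRS2KD against control (Rab27b), and the other counts did not change. Among the genes that the naming rule gave, no change that was called, in the reported fit or under an alternative, had the opposite sign in the other. Values near 0 did change sign, such as that of Rab3d in alphaIRS1KD against control (-0.09 to 0.07). Genes named outside the rule (Usp6nl, Dennd1a, Rab4a, Rab33b and others) were not recomputed one by one. The cause of these shifts was not tested. Low signal on some probes and 3 arrays per group limit the sensitivity.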
